A study of Homo sapiens with 14 samples.

Results

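The EGFR family comprises receptor tyrosine kinases of the epithelial cell surface and the small growth factors that bind them. The transcripts described here are 10 gene names of the 59471 in the count files, chosen by name: the receptors EGFR, ERBB2 and ERBB3, the ligands AREG, EREG, TGFA, HBEGF, BTC and EPGN, and the feedback inhibitor ERRFI1. They were measured by RNA-seq in SCC23, an established human head and neck squamous cell carcinoma (HNSCC) line. The study asked how loss of KMT2D, an H3K4 methyltransferase acting mainly at enhancers, changes HNSCC cells that have glucose and cells that lack it.

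There were 14 libraries in 4 groups. KMT2D-KO cells are the lines KO1 and KO2, made with a plasmid that carries Cas9, GFP and a guide against KMT2D. The study describes SCC23 cells that received the same plasmid with a guide against LacZ. It also calls its KMT2D-WT cells parental, so it was not settled here whether the KMT2D-WT cells were transfected too. Cells of both genotypes were either kept in glucose (+Glc, 3 KMT2D-WT and 4 KMT2D-KO libraries) or deprived of it for 6 h (-Glc, again 3 and 4 libraries). Each condition was run in 2 experiments, with 1 KMT2D-WT library, 1 KO1 library and 1 KO2 library in experiment 1, and 2 KMT2D-WT libraries, 1 KO1 library and 1 KO2 library in experiment 2. The lines come from sorted cells of 1 parental cancer line, no cloning of single cells is described, and no labels say that the 2 KMT2D-WT libraries of experiment 2 were separate cultures. P-values therefore measure the spread between these libraries, which may be technical. In bulk RNA, fewer cells that use a gene and less RNA per cell cannot be told apart.

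Several features of the libraries bear on the values that follow. Total counts ranged from 15669154 to 62968057, and the 4 libraries with glucose in experiment 2 were counted per mate rather than per fragment, so levels with and without glucose were compared directly only in experiment 1. Among the glucose-deprived libraries of experiment 2, the KMT2D-WT pair and the KMT2D-KO pair differed by a chi-square of only 1.71 and 1.78 per gene, against 25.9 to 83.0 for the other 4 pairs of the same genotype, glucose condition and experiment. These pairs differed by more than counting noise and were kept as separate libraries. The genotype comparison in glucose-deprived cells is also given with each pair summed. The lines were compared over 16 genes that separated KO1 from KO2 in cells kept in glucose, over both experiments. The glucose-deprived libraries labelled KO1 and KO2 in experiment 2 lay 0.323 and 0.359 from deprived KO2 of experiment 1 (mean absolute log2 difference). From deprived KO1 of experiment 1 they lay 3.85 and 3.89. Their line labels are therefore in doubt, and lines were tested only in cells kept in glucose. The targeted transcript KMT2D did not fall in every edited library. In cells kept in glucose it was at 279, 266 and 271 CPM in KMT2D-WT libraries, at 182 and 184 CPM in the KO1 libraries and at 323 and 373 CPM in the KO2 libraries. In glucose-deprived cells it was between 231 and 239 CPM in KMT2D-WT libraries and at 19.9, 190.2, 152 and 145 CPM in KMT2D-KO libraries. The study checked the edits by Sanger sequencing and the loss of KMT2D protein by western blot. These RNA levels do not measure that protein. Of 8 squamous markers, 5 (including KRT14, a basal keratin, at 26.5 to 253 CPM, and TP63, a master factor of squamous epithelium, at 71.0 to 244 CPM) exceeded 10 CPM in every library, whereas KRT6A did not exceed 1.13 CPM. The summed level of the 8 markers was 886 to 1693 CPM in KMT2D-WT and 634 to 1789 CPM in KMT2D-KO libraries with glucose, and 1200.0 to 1659 CPM against 1702 to 3248 CPM without. Of 12 markers of leukocytes, endothelium, fibroblasts and melanocytes, 7 stayed under 1 CPM in every library. The 4 fibroblast markers summed to 3.17 to 7.04 CPM in KMT2D-WT and 7.20 to 20.7 CPM in KMT2D-KO libraries, and the 3 endothelial markers to 0.422 to 1.18 against 0.304 to 4.11 CPM with glucose and 0.388 to 0.800 against 2.19 to 3.31 CPM without. Single genes weigh heavily in these sums. PECAM1 and VWF did not exceed 0.255 and 0.3072 CPM, against up to 4.114 CPM for CDH5. COL1A1 was at 3.032 to 15.98 CPM, and COL1A2, DCN and LUM did not exceed 5.335, 0.8159 and 0.2702 CPM. KRT5 ranged from 1.505 to 225.1 CPM. The fibroblast sum thus separated the genotypes in both conditions, and the squamous and endothelial sums separated them in glucose-deprived cells, as several genes below do. Their part in those results was not tested.

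Ligands of this family are made as membrane-bound precursors that ADAM proteases release. A released ligand joins receptors into pairs, which phosphorylate each other and signal through RAS and ERK and through PI3K and AKT to growth, migration and survival. ERBB2 has no known ligand and works as a partner, ERBB3 has little kinase activity of its own and relies on its partner, and ERRFI1 (MIG6) binds the active EGFR kinase, blocks it and promotes its removal from the surface. EGFR is abundant in squamous epithelium and is a drug target in HNSCC.

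Of the 6 ligand genes, 4 lie together on chromosome 4. In GRCh38, EPGN (74308470-74316789), EREG (74365145-74388749), AREG (74445136-74455005) and BTC (74744759-74794523, reverse strand) fall within 486 kb that hold 6 gene names in all, the other 2 being non-coding transcripts with a mean count of 1.07 and 3.50. Because AREG, EREG and BTC all moved the same way in glucose-deprived cells while EPGN was hardly detected, the stretch from 100 bases before to 20 bases after the start of each is shown here, 5′ to 3′ on the strand of the gene, as RefSeq gives it for GRCh38.p14. Capitals mark a TATA box (TATAAA), a cAMP response element (TGACGTCA) and a CCAAT box (CCAAT or its reverse complement), motifs that were chosen after the expression values had been seen.
EPGN, chr4:74308370-74308489, plus strand: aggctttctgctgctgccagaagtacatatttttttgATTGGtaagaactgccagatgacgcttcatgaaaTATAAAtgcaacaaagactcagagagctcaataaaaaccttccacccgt
EREG, chr4:74365045-74365164, plus strand: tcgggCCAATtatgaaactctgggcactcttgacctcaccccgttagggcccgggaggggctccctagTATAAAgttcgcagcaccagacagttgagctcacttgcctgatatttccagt
AREG, chr4:74445036-74445155, plus strand: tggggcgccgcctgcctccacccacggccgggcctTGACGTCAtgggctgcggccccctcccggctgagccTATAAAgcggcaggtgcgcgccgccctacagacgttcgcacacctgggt
BTC, chr4:74794504-74794623, minus strand: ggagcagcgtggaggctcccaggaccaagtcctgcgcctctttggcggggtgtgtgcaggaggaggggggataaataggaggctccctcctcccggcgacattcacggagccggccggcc

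EPGN, EREG and AREG each carried TATAAA on the sense strand, beginning 29, 32 and 29 bases before the start, a placement within 50 bases that 2.63% of 35116 promoters in the RefSeq table share. The BTC stretch did not hold these letters. AREG also held TGACGTCA, a palindrome beginning 65 bases before its start, which 1.85% of all promoters (250 bases before to 50 after the start) contain. Counting either strand, a CCAAT box was present in 34.6% of all promoters, and the capitals mark no overlapping motifs. EPGN, which had both a TATA box and a CCAAT box, was the least abundant of the 10 transcripts per kb of exon, and AREG was the most abundant.

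To compare genes with each other, counts scaled to library size by TMM (CPM) were divided by the length of each gene's exons, giving CPM per kb. AREG, which encodes amphiregulin, a low-affinity EGFR ligand, had the highest level in each of the 4 groups. In KMT2D-WT cells with glucose it stood at 206 ± 29.2 CPM per kb (SD, n = 3), followed by EGFR at 67.1 ± 12.7, TGFA at 48.8 ± 10.7, ERRFI1 at 24.3 ± 2.80, ERBB2 at 14.3 ± 2.67, HBEGF at 12.3 ± 3.14, ERBB3 at 5.23 ± 0.751, EREG at 3.67 ± 1.27, BTC at 1.56 ± 0.325 and EPGN at 0.0700 ± 0.0277. In that order EGFR and TGFA, ERBB2 and HBEGF, and ERBB3 and EREG overlapped, and all other neighbours were apart. In glucose-deprived KMT2D-KO cells AREG reached 437 ± 23.0 CPM per kb (SD, n = 4) and ERRFI1 moved from the fourth to the second place at 116 ± 32.1, above EGFR at 49.1 ± 5.96 with no overlap. Below them the order in those cells ran TGFA, HBEGF, ERBB2, EREG, BTC, ERBB3 and EPGN, and of these neighbours only EREG against BTC and ERBB3 against EPGN did not overlap.

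**Figure D1:**
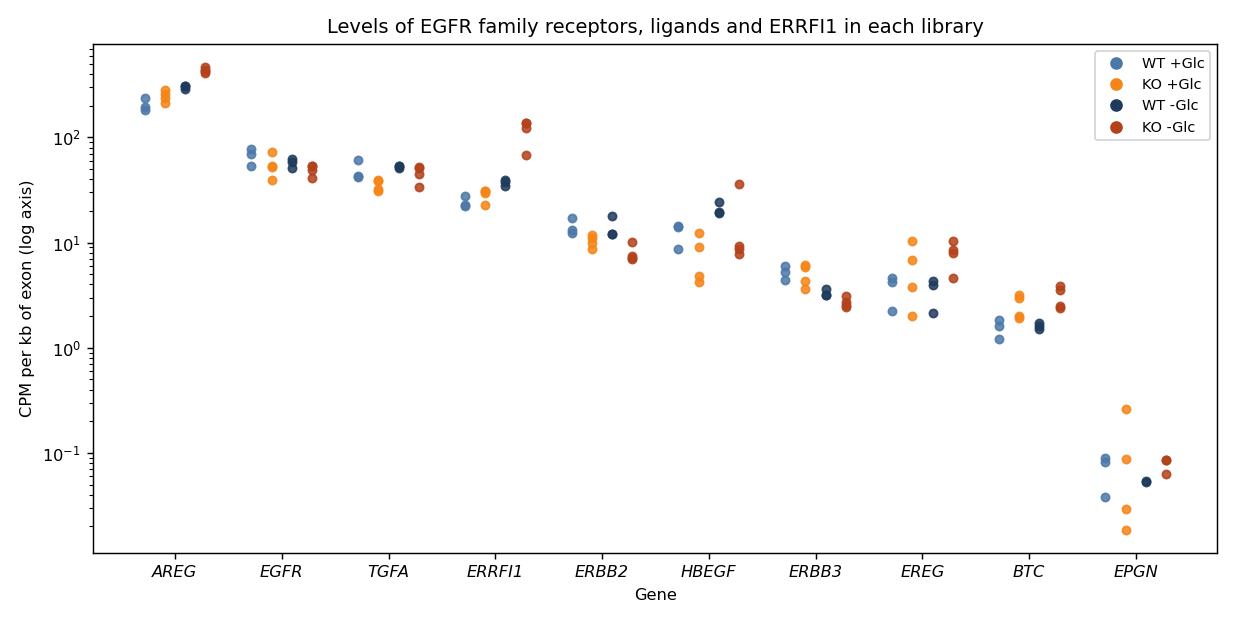
Level of each of the 10 transcripts in CPM per kb of exon on a log axis, 1 point for each library, coloured by group and ordered by the mean in KMT2D-WT cells kept in glucose. AREG is highest in every group, ERRFI1 in glucose-deprived KMT2D-KO cells (red) lies above EGFR, and EPGN lies far below all others; the 2 libraries in which EPGN had no count are not drawn.

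Amphiregulin accounted for most ligand transcripts. Its share of the 6 ligands, on the CPM per kb scale, was 74.6% to 77.2% in KMT2D-WT and 80.0% to 85.4% in KMT2D-KO libraries with glucose, and 78.4% to 79.6% against 84.9% to 87.0% without it. The shares of the 2 genotypes did not overlap in either condition. The ratio of EGFR to ERBB2, per kb, was 3.08 to 5.97 in KMT2D-WT and 3.33 to 8.50 in KMT2D-KO libraries with glucose, and 2.89 to 5.16 against 4.84 to 7.37 without it, with overlap in both. Within each experiment the genotypes did not overlap without glucose (2.89 in KMT2D-WT against 5.79 and 4.84 in KMT2D-KO libraries in experiment 1, and 5.16 and 4.83 against 7.16 and 7.37 in experiment 2). With glucose they overlapped in experiment 2 (5.97 and 5.66 against 8.50 and 5.48) but not in experiment 1 (3.08 against 4.77 and 3.33).

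Genotypes were compared in each glucose condition with edgeR's quasi-likelihood test with experiment in the model, and a gene was called at a Benjamini-Hochberg adjusted p under 0.05 over all genes tested. Values are always listed in 1 order, in which the KMT2D-WT values are those of experiment 1 and of the libraries WT1 and WT2 of experiment 2, and the KMT2D-KO values are those of KO1 and KO2 of experiment 1 and then of KO1 and KO2 of experiment 2. In cells kept in glucose, BTC rose and ERBB2 and TGFA fell in KMT2D-KO cells, which is 1 of 10 tested members higher and 2 lower, while 13.0% of all 20423 genes tested were called higher and 11.7% lower. In glucose-deprived cells, AREG, EREG, BTC and ERRFI1 rose and EGFR, ERBB2 and ERBB3 fell, which is 4 of 9 tested members higher and 3 lower, while 25.9% of all 16782 genes tested were called higher and 24.9% lower. The share of members called was thus above that of all genes in glucose-deprived cells (50.8% of all genes in either direction) and near it in cells kept in glucose (24.7%). The median log2 fold change of the members was 0.09 with glucose and -0.19 without, against 0.02 and 0.003 for all genes tested. The calls in glucose-deprived cells depended on the close pairs of experiment 2. With each pair summed to 1 library, only ERRFI1 was called higher and only ERBB2 lower, beside 2785 of all 16867 genes tested.

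**Figure D2:**
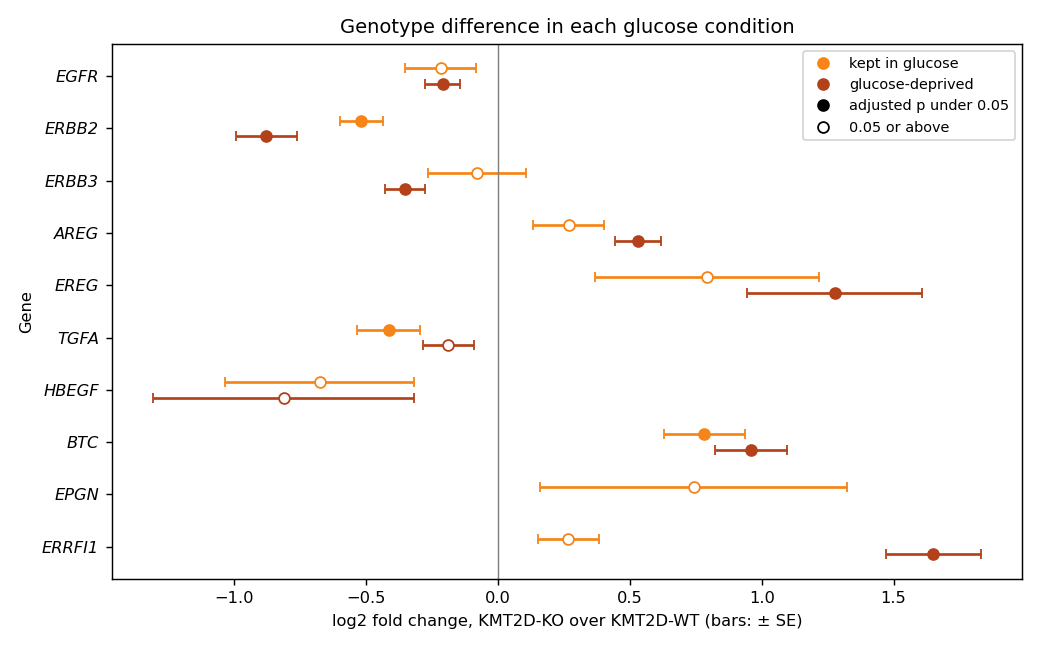
Log2 fold change of KMT2D-KO over KMT2D-WT for each member (points, bars ± SE of the edgeR fit) in cells kept in glucose (orange) and glucose-deprived cells (red), with filled points for an adjusted p under 0.05; EPGN was tested only with glucose. All 3 receptors lie left of 0 in both conditions, AREG, EREG, BTC and ERRFI1 lie right of it, and ERRFI1 has the widest gap between conditions.

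All 3 receptor transcripts were lower in KMT2D-KO cells without glucose, ERBB2 most of all. ERBB2 (chromosome 17, 39687914-39730426) encodes the receptor without a ligand. With glucose its level was 179, 136 and 127 CPM in the KMT2D-WT libraries and 113, 122, 88.7 and 101 CPM in the KMT2D-KO libraries. Without glucose it was 184, 125 and 125 CPM in KMT2D-WT and 72.7, 104, 77.5 and 74.2 CPM in KMT2D-KO libraries. Every KMT2D-KO library lay below every KMT2D-WT library in both conditions. ERBB2 thus fell by 0.52 on the log2 scale with glucose (SE 0.08, adjusted p = 0.0024 by edgeR's quasi-likelihood test) and by 0.88 without it (SE 0.12, adjusted p = 0.0010). Within experiments the ratio of the mean levels, KMT2D-KO over KMT2D-WT, was 0.657 and 0.723 with glucose and 0.480 and 0.607 without. The exons of ERBB2 share 6.93% of their bases with MIEN1 and PGAP3 on the other strand, which counts without strand cannot separate.

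EGFR (chromosome 7, 55019017-55211628), the receptor that gives the family its name, differed less. With glucose it was at 667, 980.4 and 873 CPM in KMT2D-WT and at 653, 491, 914 and 673 CPM in KMT2D-KO libraries. Without glucose it was at 644, 783 and 730.4 CPM in KMT2D-WT and at 509.8, 610.2, 672.5 and 663 CPM in KMT2D-KO libraries. The genotypes overlapped in both conditions, although within each experiment the mean of the KMT2D-KO libraries was below that of KMT2D-WT, at 0.857 and 0.856 of it with glucose and 0.870 and 0.883 without. The log2 fold change was -0.22 with glucose (SE 0.13, adjusted p = 0.284 by edgeR) and EGFR fell by 0.21 without glucose (SE 0.07, adjusted p = 0.0363). That call was lost, with adjusted p between 0.0866 and 0.152, in 5 of the 7 fits that left out 1 library, namely any of the 3 KMT2D-WT libraries or either KMT2D-KO library of experiment 2. It was also lost with the close pairs of experiment 2 summed (adjusted p = 0.304 by edgeR).

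ERBB3 (chromosome 12, 56076799-56103505), the receptor with little kinase activity of its own, was at 52.6, 39.3 and 46.7 CPM in KMT2D-WT and 38.5, 51.6, 31.8 and 54.5 CPM in KMT2D-KO libraries with glucose. Both KO1 libraries were below and the KO2 libraries close to or above the KMT2D-WT libraries of their experiment, and the groups overlapped. The log2 fold change over both lines was -0.08 (SE 0.18, adjusted p = 0.799 by edgeR). Without glucose ERBB3 was at 32.2, 27.8 and 28.0 CPM in KMT2D-WT and 24.1, 27.5, 22.4 and 21.5 CPM in KMT2D-KO libraries, all of the latter lower, and it fell by 0.35 on the log2 scale (SE 0.08, adjusted p = 0.00834). Leaving out the KMT2D-KO library labelled KO2 of experiment 2 raised that adjusted p to 0.0526, and summing the close pairs of experiment 2 raised it to 0.177. The ratio of means was 0.856 and 1.00 in experiments 1 and 2 with glucose and 0.803 and 0.789 without.

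Of the ligands, BTC was higher in KMT2D-KO cells in both conditions and AREG and EREG in glucose-deprived cells, TGFA was lower in cells kept in glucose, and HBEGF and EPGN were not called. AREG was at 300.3, 392 and 323 CPM in KMT2D-WT and 463, 392, 421 and 346 CPM in KMT2D-KO libraries with glucose, with overlap and a log2 fold change of 0.27 (SE 0.13, adjusted p = 0.188 by edgeR). Without glucose it was at 469.6, 505 and 501 CPM in KMT2D-WT and 766, 674, 718 and 711 CPM in KMT2D-KO libraries. All 4 KMT2D-KO libraries then lay above all KMT2D-WT libraries, and AREG rose by 0.53 on the log2 scale, or 1.45-fold (SE 0.09, adjusted p = 0.00234). Summing the close pairs of experiment 2 raised that adjusted p to 0.0555. The KMT2D-KO to KMT2D-WT ratio of mean levels was 1.42 and 1.07 in experiments 1 and 2 with glucose and 1.53 and 1.42 without.

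EREG encodes epiregulin, a ligand of EGFR and ERBB4. With glucose it was at 12.7, 24.2 and 26.1 CPM in KMT2D-WT libraries, at 38.7 and 58.6 CPM in the KO1 libraries and at 11.5 and 21.5 CPM in the KO2 libraries. The 2 KO1 libraries were above all KMT2D-WT libraries and the KO2 libraries were not, so the log2 fold change over both lines, 0.79, had a wide error (SE 0.42, adjusted p = 0.218 by edgeR). Without glucose EREG was at 12.3, 22.7 and 24.6 CPM in KMT2D-WT and 59.1, 26.4, 45.8 and 48.8 CPM in KMT2D-KO libraries. There the groups did not overlap, and EREG rose by 1.28 on the log2 scale, or 2.42-fold (SE 0.33, adjusted p = 0.0163). When the KMT2D-WT library of experiment 1, the lowest of the 7, was left out, the log2 fold change was 0.94 and the adjusted p 0.107. Summing the close pairs of experiment 2 gave an adjusted p of 0.0935 by edgeR. The ratio of means was 1.98 and 1.59 in experiments 1 and 2 with glucose and 3.48 and 2.00 without.

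BTC, betacellulin, another ligand of EGFR and ERBB4, was scarce, with counts from 76 to 514. It was at 3.21, 4.91 and 4.26 CPM in KMT2D-WT and 5.04, 5.32, 7.81 and 8.43 CPM in KMT2D-KO libraries with glucose. Without glucose the values were 4.04, 4.56 and 4.23 CPM in KMT2D-WT and 6.39, 6.56, 9.44 and 10.3 CPM in KMT2D-KO libraries. Among the 6 ligands described here, BTC was the only one whose KMT2D-KO libraries all exceeded all KMT2D-WT libraries in both conditions, and it rose by 0.78 with glucose (SE 0.15, adjusted p = 0.00626 by edgeR) and by 0.96 without it (SE 0.14, adjusted p = 0.00129) on the log2 scale. Summing the close pairs of experiment 2 raised the adjusted p without glucose to 0.0569. In experiments 1 and 2 the ratio of means was 1.62 and 1.77 with glucose and 1.605 and 2.24 without. EPGN, epigen, had between 0 and 57 counts in a library and at most 0.866 CPM, in the KO1 library of experiment 2 with glucose. A count of 0 was found in 2 glucose-deprived libraries of experiment 1, KMT2D-WT and KO1. Such a count still allows an expected count of up to about 3 at the same depth. EPGN was too low to be tested without glucose. With glucose its log2 fold change was 0.74 (SE 0.58, adjusted p = 0.406).

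TGFA, transforming growth factor alpha, was at 208, 301 and 212 CPM in KMT2D-WT and 153, 159, 190 and 192 CPM in KMT2D-KO libraries with glucose. All KMT2D-KO libraries were lower, and TGFA fell by 0.41 on the log2 scale (SE 0.12, adjusted p = 0.0325 by edgeR). The call was lost in 5 of the 7 fits that left out 1 library (adjusted p from 0.0527 to 0.154), and held only without the KO2 library of experiment 1 or the WT2 library of experiment 2. Without glucose TGFA was at 250.1, 262 and 261 CPM in KMT2D-WT and 167, 221, 257 and 254 CPM in KMT2D-KO libraries. The groups then overlapped, with a log2 fold change of -0.19 (SE 0.10, adjusted p = 0.145). The ratio of mean levels, KMT2D-KO over KMT2D-WT, was 0.752 and 0.744 in experiments 1 and 2 with glucose and 0.775 and 0.978 without.

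HBEGF, heparin-binding EGF-like growth factor, varied widely among the KMT2D-KO libraries. With glucose it was at 42.6, 41.7 and 25.9 CPM in KMT2D-WT, at 27.2 and 36.7 CPM in the KO1 libraries and at 12.6 and 14.5 CPM in the KO2 libraries. The log2 fold change over both lines was -0.68 (SE 0.36, adjusted p = 0.214 by edgeR). Without glucose it was at 72.9, 58.8 and 57.5 CPM in KMT2D-WT and 108, 28.0, 26.1 and 23.3 CPM in KMT2D-KO libraries. The KO1 library of experiment 1 was the highest of all 14 and the other KMT2D-KO libraries were below every glucose-deprived KMT2D-WT library. The log2 fold change of -0.81 therefore had an SE of 0.50 (adjusted p = 0.210). Without that library it was -1.32 (adjusted p = 1.58e-13 by edgeR). That fit called 12448 of all 16739 genes tested and rests largely on the close pairs of experiment 2. Its adjusted p may therefore measure technical spread. By experiment the ratio of means was 0.467 and 0.756 with glucose and 0.935 and 0.424 without.

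ERRFI1 (chromosome 1, 8004404-8026309), the inhibitor, showed the widest genotype difference of the 10 in glucose-deprived cells. With glucose it was at 95.9, 115 and 93.9 CPM in KMT2D-WT and 95.4, 123, 129 and 130.1 CPM in KMT2D-KO libraries. These groups overlapped, with a log2 fold change of 0.27 (SE 0.12, adjusted p = 0.133 by edgeR). Without glucose it was at 145, 164 and 159 CPM in KMT2D-WT and 287, 513, 571 and 567 CPM in KMT2D-KO libraries. The lowest KMT2D-KO library was far above the highest KMT2D-WT library, and ERRFI1 rose by 1.65 on the log2 scale, or 3.14-fold (SE 0.18, adjusted p = 0.000457). The ratio of mean levels was 2.76 in experiment 1 and 3.52 in experiment 2 (1.14 and 1.24 with glucose), and the call was kept in each of the 7 fits that left out 1 library. A non-coding transcript on the other strand shares 3.71% of the exonic bases of ERRFI1.

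**Figure D3:**
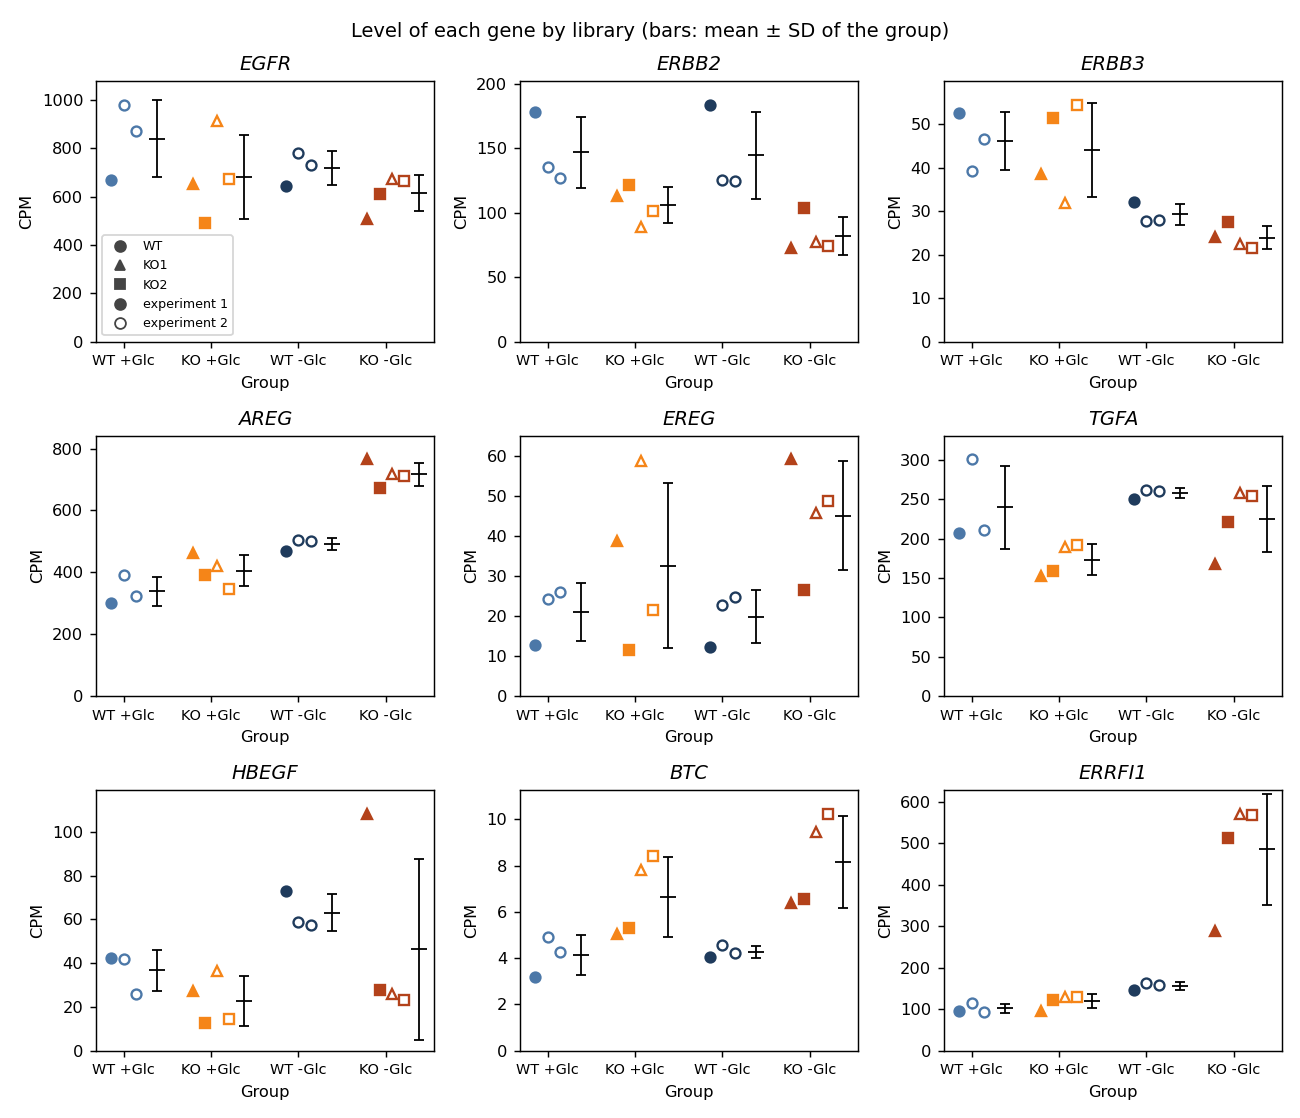
CPM of 9 members in each of the 14 libraries, by group, with circles for KMT2D-WT, triangles for KO1 and squares for KO2 as labelled, filled for experiment 1 and open for experiment 2, and black bars for the mean ± SD of the group (n = 3 or 4). In glucose-deprived cells the KMT2D-KO libraries lie above the KMT2D-WT libraries for AREG, EREG, BTC and ERRFI1 and below them for ERBB2 and ERBB3, and 1 KO1 library stands alone for HBEGF.

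In cells kept in glucose the groups did not overlap for 1 member that was higher in KMT2D-KO cells and 2 that were lower, against 9.66% and 10.4% of all genes tested. In glucose-deprived cells this held for 4 members that were higher and 2 that were lower, against 16.3% and 18.9% of all genes tested. The calls depended on how the experiments and close pairs were treated. Without experiment in the model, edgeR and DESeq2 each called 0 of the 10 members in cells kept in glucose. Of all genes, edgeR then called 971 of 20423 and DESeq2 2228 of 36760. By edgeR 1 member was higher and 2 were lower at an unadjusted p under 0.05 (BTC, ERBB2 and TGFA). The share of all genes at that threshold is not given here. In glucose-deprived cells the same 4 members were then called higher and only ERBB2 lower, beside 3659 of all 16782 genes called by edgeR. Experiment 1 alone had 1 KMT2D-WT and 2 KMT2D-KO libraries in each condition. With 1 KMT2D-WT library, its calls cannot show whether the members differed. The ratios of mean levels in that experiment are given above for each gene but EPGN. With each close pair summed to 1 library, leaving 2 KMT2D-WT and 3 KMT2D-KO libraries, the calls in glucose-deprived cells were ERRFI1 (log2 fold change 1.61, adjusted p = 0.0280 by edgeR) and ERBB2 (-0.92, adjusted p = 0.0369). That fit called 2785 of all 16867 genes tested. There the adjusted p was 0.0555 for AREG, 0.0569 for BTC, 0.0935 for EREG, 0.177 for ERBB3 and 0.304 for EGFR, with the directions kept. The 4 glucose-deprived KMT2D-KO libraries had TMM factors of 0.863 to 0.893, against 1.01 to 1.09 in the other 10, and their 10 largest genes took 7.04% to 7.42% of counts against 4.26% to 6.84%. Scaled to library size without TMM, the median log2 fold change of all genes in glucose-deprived cells was -0.25. Then 4 members were called higher and 4 lower, beside 9021 of all 16782 genes tested.

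Whether the effect of KMT2D loss differed with glucose was tested as an interaction in 1 fit of all 14 libraries. ERRFI1 was the 1 member of 9 tested that passed, with an effect larger by 1.41 on the log2 scale in glucose-deprived cells (SE 0.24, adjusted p = 0.00417 by edgeR), while 4.73% of all 18678 genes tested were called in this direction and 6.54% in the other. In this fit no member was called in the other direction, also not at an unadjusted p under 0.05 (0 of 9), and DESeq2 called none. Under library size scaling edgeR called ERBB2 in that direction, as given below. With TMM scaling the difference was 0.29 for AREG (SE 0.16, adjusted p = 0.275), 0.51 for EREG (SE 0.59, adjusted p = 0.627), 0.20 for BTC (SE 0.20, adjusted p = 0.565) and -0.33 for ERBB2 (SE 0.17, adjusted p = 0.221). For these genes a call in one condition and a different one in the other thus does not show that the effects differed. The close pairs of experiment 2 were not summed in this test. Both deprived KMT2D-KO libraries of experiment 2 resembled KO2, so the lines may be unevenly split between the glucose conditions. Deprived ERRFI1 was at 287 CPM in KO1 of experiment 1 and at 513, 571 and 567 CPM in the other KMT2D-KO libraries. The part of line in this result was not tested. Leaving out each of the 14 libraries kept the ERRFI1 call. Without experiment in the model the value was 1.40 and the adjusted p 0.0686. In experiment 1 alone it had an unadjusted p under 0.05 but edgeR called no gene at all.

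Glucose deprivation itself was compared within experiment 1, where each line had 1 library with and 1 without glucose. ERRFI1 and HBEGF rose and ERBB3 fell, 2 of 9 tested members higher and 1 lower, against 0.479% and 0.622% of all 16066 genes tested (1.1% in either direction). ERRFI1 went from 95.9 to 145 CPM in KMT2D-WT, from 95.4 to 287 CPM in KO1 and from 123 to 513 CPM in KO2 cells, which is 1.52-fold, 3.01-fold and 4.19-fold. Its log2 fold change over the 3 pairs was 1.40 (SE 0.23, adjusted p = 0.0267 by edgeR). HBEGF went from 42.6 to 72.9 CPM in KMT2D-WT, from 27.2 to 108 CPM in KO1 and from 12.6 to 28.0 CPM in KO2 cells. It was higher without glucose in all 3 pairs, by 1.71-fold, 3.99-fold and 2.22-fold, with a log2 fold change of 1.28 (SE 0.22, adjusted p = 0.0310). In experiment 2, where counting differed between the conditions and line labels are in doubt, HBEGF was lower without glucose in the libraries labelled KO1 (26.1 against 36.7 CPM), and its log2 fold change of 0.37 there was not called (adjusted p = 0.32 by edgeR).

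ERBB3 was lower after deprivation in each line, at 0.612, 0.626 and 0.534 of its level with glucose in KMT2D-WT, KO1 and KO2 cells. Its log2 fold change was -0.79 (SE 0.17, adjusted p = 0.0489 by edgeR), and leaving out either KO2 library raised the adjusted p to 0.277 or 0.271. AREG was higher in each line, by 1.56-fold, 1.65-fold and 1.72-fold, a nearly even set of ratios, but its adjusted p was 0.0512 (log2 fold change 0.69, SE 0.15). It was called in 4 of the 6 fits that left out 1 library, those without a KMT2D-WT or a KO1 library (adjusted p from 0.00149 to 0.0386). EREG was at 0.968 of its level in KMT2D-WT cells and at 1.53-fold and 2.29-fold in KO1 and KO2 cells (log2 fold change 0.57, SE 0.23, adjusted p = 0.209). Without either KMT2D-WT library its adjusted p was 0.0345 or 0.0304. EGFR went down in KO1 and up in KO2 cells, with ratios of 0.781 and 1.24, and was at 0.965 in KMT2D-WT cells. With genotype in place of line in the model, that is without the pairing of libraries of 1 line, edgeR called 0 of the 9 members. It called only 3 of all 16066 genes tested in that fit. At an unadjusted p under 0.05, 3 members were higher and 1 lower, and the share of all genes at that threshold is not given here.

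**Figure D4:**
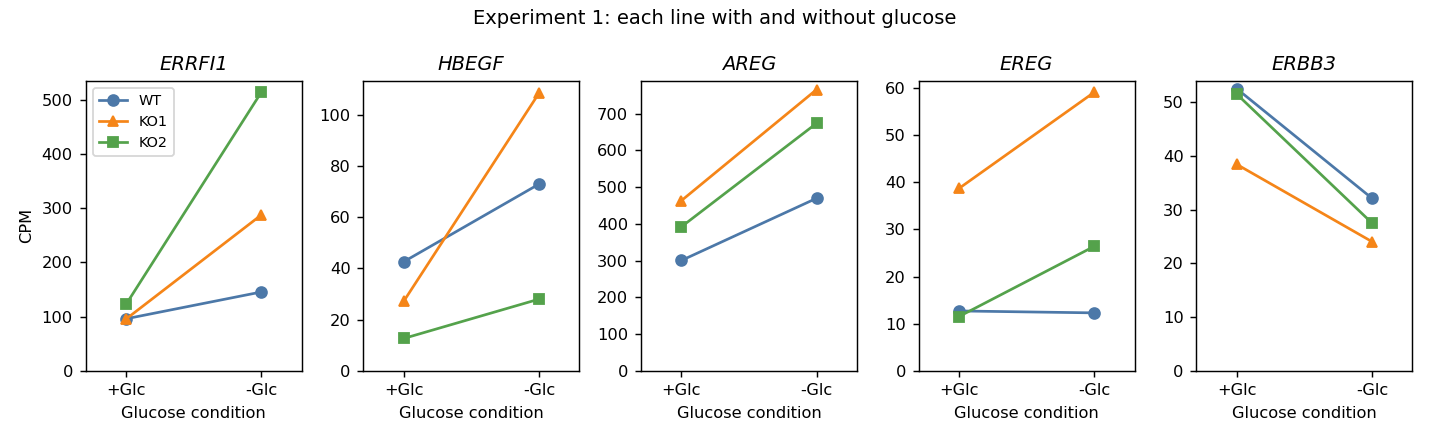
CPM of 5 members in experiment 1 with (+Glc) and without glucose (-Glc), 1 line for each of KMT2D-WT, KO1 and KO2, 1 library per point. ERRFI1 rises from 95.9 to 145 CPM in KMT2D-WT cells and to 287 and 513 CPM in KO1 and KO2 cells, AREG and HBEGF are higher and ERBB3 is lower without glucose in all 3 lines, and EREG is level in KMT2D-WT cells only.

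The 2 edited lines differed from each other in cells kept in glucose. KO1 was above KO2 for EREG (log2 difference 1.57, SE 0.12, adjusted p = 1.44e-07 by edgeR), HBEGF (1.23, SE 0.20, adjusted p = 0.000324) and EGFR (0.41, SE 0.08, adjusted p = 0.00142) and below it for ERBB3 (-0.62, SE 0.12, adjusted p = 0.00108). That is 3 of 10 members higher and 1 lower, against 7.32% and 7.4% of all 21850 genes tested (14.7% in either direction). Leaving out the KO2 library of experiment 2 raised the adjusted p to 0.0775 for EGFR and 0.118 for ERBB3. ERBB2, TGFA and BTC, the 3 members called over both lines, differed between the lines by -0.16 (SE 0.08, adjusted p = 0.241), -0.05 (SE 0.12, adjusted p = 0.862) and -0.11 (SE 0.18, adjusted p = 0.803) on the log2 scale.

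Against KMT2D-WT, whose libraries both comparisons share, KO1 had AREG, EREG and BTC higher and ERBB2, ERBB3 and TGFA lower, while 16.1% and 15.9% of all genes tested were called higher and lower. KO2 had BTC and ERRFI1 higher and EGFR, ERBB2, TGFA and HBEGF lower, while 18.0% and 16.6% of all genes tested were called. The log2 fold change of EREG was 1.37 in KO1 (SE 0.11, adjusted p = 2.74e-08 by edgeR) and -0.20 in KO2 (SE 0.11, adjusted p = 0.182). That of HBEGF was -0.18 in KO1 (SE 0.17, adjusted p = 0.50) and -1.41 in KO2 (SE 0.18, adjusted p = 9.57e-06), so the pooled values of both genes lie between lines that were apart.

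As a description over the 14 libraries, log2 levels were centred within each combination of glucose and experiment and compared by Pearson's r with 14267 genes. Libraries of 1 combination then share their mean, and genotype and line still differ among them. The genes most like AREG were MSN (r = 0.97), INPP4B (0.96) and TMED3 (0.96), those most like EREG included STAG2 (0.98) and SH3GLB1 (0.98), and those most like EGFR were MYO5A (0.96), SPTB (0.96) and FBXL18 (0.95). Among members, AREG ran with EREG (r = 0.85) and BTC (0.79) and against ERBB2 (-0.91) and ERBB3 (-0.82), and EGFR ran with TGFA (0.63) and ERBB2 (0.57).

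The remaining genes of the pathway were read from 5 lists of 86 genes in all, named by function. Among the 6 other receptors and ligands, only NRG1 was abundant. NRG1 (chromosome 8, 31639222-32855666) encodes neuregulin 1, a ligand of ERBB3 and ERBB4. With glucose it ranged from 129 to 149.8 CPM in KMT2D-WT and from 284 to 374 CPM in KMT2D-KO libraries, and without glucose from 149 to 159.8 CPM and from 528 to 694 CPM. The groups did not overlap, and NRG1 rose by 1.27 with glucose (SE 0.11, adjusted p = 0.000122 by edgeR) and by 2.00 without it (SE 0.09, adjusted p = 3.73e-05) on the log2 scale. It was also called in the test of the difference between glucose conditions. ERBB4, EGF, NRG2 and NRG3 had at most 39, 9, 70 and 1 counts in a library, and NRG4 had 3 to 110 counts. ERBB4 was called lower with glucose at these counts.

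Among 12 genes of ligand release and trafficking, 1 rose and 1 fell with glucose, and 1 rose and 3 fell without, while 13.0% and 11.7% of all genes tested were called higher and lower with glucose and 25.9% and 24.9% without. ADAM12, a protease that can release HBEGF, was at 13.4 to 19.2 CPM in KMT2D-WT and at most 0.395 CPM in KMT2D-KO libraries with glucose, and at 14.1 to 14.5 CPM against at most 0.0949 CPM without. Some KMT2D-KO libraries had no count, so the fitted log2 fold changes of -5.88 and -8.38 depend on the prior count of the fit (adjusted p = 4.75e-05 and 3.94e-05 by edgeR). ADAM15, another member of the family, rose by 0.54 with glucose (SE 0.11, adjusted p = 0.00661) and by 0.85 without (SE 0.07, adjusted p = 0.000136). The other 2 that fell without glucose, named after their values had been seen, were ADAM17, the main sheddase of AREG and TGFA (log2 fold change -0.47, adjusted p = 0.016), and FRMD8, which acts with the factors that traffic ADAM17 (-0.82, adjusted p = 0.000361). Genes on the other strand share 14.4% of the exonic bases of ADAM17. Values of ADAM17 and FRMD8 with the close pairs summed are not given here.

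Among 22 genes of receptor turnover and inhibition, 4 rose and 4 fell with glucose, and 11 rose and 2 fell without, with a median log2 fold change of 0.20 and 0.35 against 0.02 and 0.003 for all genes tested, of which 13.0% and 11.7% rose and fell with glucose and 25.9% and 24.9% without. LRIG1, a transmembrane inhibitor that promotes receptor degradation, was scarce, at 0.794 to 1.84 CPM in KMT2D-WT and 4.68 to 8.79 CPM in KMT2D-KO libraries with glucose. It rose by 2.53 with glucose (SE 0.39, adjusted p = 0.00194 by edgeR) and by 1.87 without it (SE 0.20, adjusted p = 0.000395) on the log2 scale, and 12.9% of its exonic bases are shared with SLC25A26 on the other strand. SH3KBP1, the adaptor CIN85 in receptor endocytosis, rose by 1.06 with glucose (SE 0.13, adjusted p = 0.000519). SOCS3, a cytokine signalling inhibitor, fell by 1.93 without glucose (SE 0.28, adjusted p = 0.0015), from a mean of 12.1 CPM to 3.68 CPM.

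Among 27 adaptors and signal transducers, 2 rose and 5 fell with glucose, and of 26 tested without glucose 9 rose and 4 fell, beside 13.0% and 11.7% of all genes with glucose and 25.9% and 24.9% without. SOS2, a nucleotide exchange factor of RAS, fell by 1.15 without glucose (SE 0.08, adjusted p = 8.63e-05 by edgeR), from a mean of 37.0 CPM to 15.4 CPM.

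Among 19 transcripts that ERK signalling induces, 5 rose and 6 fell with glucose, and 6 rose and 6 fell without. The shares of all genes tested were 13.0% and 11.7% with glucose and 25.9% and 24.9% without. EGR1, an immediate early factor, was at 108 to 168 CPM in KMT2D-WT and 27.3 to 45.3 CPM in KMT2D-KO libraries with glucose and fell by 1.90 on the log2 scale (SE 0.19, adjusted p = 0.000262 by edgeR). DUSP5, a nuclear ERK phosphatase, fell by 1.77 with glucose (SE 0.30, adjusted p = 0.00332). MYC, a growth factor-responsive transcription factor, rose by 2.12 without glucose (SE 0.07, adjusted p = 2.76e-05), from 126 to 181 CPM in KMT2D-WT to 563 to 839 CPM in KMT2D-KO libraries. LIF, a cytokine, fell by 1.88 without glucose (SE 0.17, adjusted p = 0.000211).

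**Figure D5:**
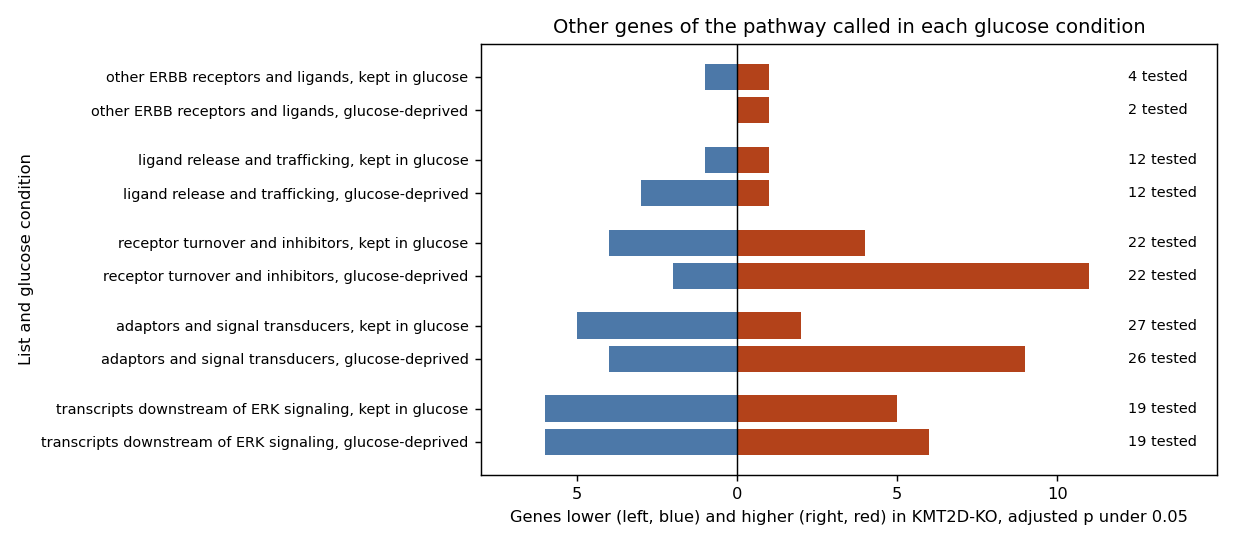
Number of genes of each pathway list called lower (blue, left) and higher (red, right) in KMT2D-KO cells (adjusted p under 0.05), with the number tested, in cells kept in glucose and in glucose-deprived cells. Receptor turnover and inhibition has 11 genes higher and 2 lower without glucose, whereas transcripts downstream of ERK have 6 in each direction.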

How the data were processed

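The 14 RNA-seq libraries of SCC23 cells were grouped by the genotype and glucose condition in their labels. The authors mapped reads to GRCh38 with HISAT2 and counted them per gene name with featureCounts 2.0.3 on Ensembl 102, without strand. The deposited values are raw counts, with primary alignments counted and, per the file headers, both mates counted in 4 libraries. Total counts were 15669154 to 62968057 per library. The spread between libraries exceeds counting error, so precision was taken from replicates.

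The test was the quasi-likelihood F test of edgeR 4.0.16 (R 4.3.3) after TMM scaling, on genes passing filterByExpr at a minimum count of 10, with Benjamini-Hochberg adjustment over all genes tested and a threshold of 0.05. Experiment was a covariate because genotypes are unevenly spread over the experiments. The study's methods name DESeq2 without a covariate, which was an alternative (version 1.42.0). Libraries were paired by experiment, as the labels give it, and the differences between experiments in KMT2D-WT and KMT2D-KO cells were correlated over 14268 genes (0.95 with glucose, 0.87 without). Lines were paired over glucose conditions in experiment 1. The genotype difference between glucose conditions was tested in all 14 libraries with experiment within each condition. CPM were scaled by TMM over all libraries, and exonic lengths are unions of the annotated exons.

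The members and the 5 pathway lists were chosen with earlier results of these data known. Named pathway genes were the 2 called genes of each list with the largest absolute log2 fold change in each glucose condition, with a mean of at least 1 CPM and the same direction in both experiments. For likeness, the 3 genes with the highest r were named. Some genes that these rules select are not reported here. Alternatives were DESeq2, other scalings, no filter, no covariate, halved counts of the libraries with both mates, summed close pairs, single lines, single experiments and each library left out. The method was tested on simulated data with 200 changed genes. Promoters were found for 9 of the 10 members in the RefSeq table. ChIP-seq data were not analysed here.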

Additional observations from a re-analysis of the deposited data

Results flagged for a closer look

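In the 4 glucose-deprived KMT2D-KO libraries, ERBB2 in the KO2 library of experiment 1 (104 CPM) stood far above the others (72.7 to 77.5 CPM), with a gap of 0.846 of the whole range, and HBEGF in the KO1 library of experiment 1 (108 CPM) stood above the others (23.3 to 28.0 CPM), with a gap of 0.945 of the range. For 4 independent libraries of 1 population, chance gives such a gap in about 1 in 20 groups. Here 20 groups of 4 libraries were examined, of which these 2 were marked. The KMT2D-KO groups mix lines and experiments, and the glucose-deprived group holds a close pair. That rate therefore need not apply to them.

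The effect of KMT2D loss on ERRFI1 differed between glucose conditions, by 1.414 on the log2 scale in the interaction test, in which the close pairs were not summed. In cells kept in glucose, the effects in the KO1 and KO2 lines differed for EREG (1.572, KO1 minus KO2 on the log2 scale), HBEGF (1.233), EGFR (0.4136) and ERBB3 (-0.6245), each by the test of the difference itself.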

How the results depend on the processing

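Of 757 refits of single members under alternatives, 643 kept their direction and their side of the threshold, 59 lost the call, 32 gained it and 23 changed sign. The counts of members called (higher and lower) moved as follows. Without the replicate block, that is with no pairing by experiment, cells kept in glucose had 0 and 0 in place of 1 and 2 (0 and 0 also by DESeq2 with no covariate), glucose-deprived cells had 1 lower in place of 3 (1 also by DESeq2 with no covariate), the interaction had 0 higher in place of 1, the lines 0 and 0 in place of 3 and 1, and the glucose comparison, with genotype in place of line, 0 and 0 in place of 2 and 1. Without the block edgeR called 971 of all 20423 genes tested with glucose and 3659 of 16782 without. In the interaction it called 70 of 18678, between the lines 11 of 21850 and in the glucose comparison 3 of 16066. No filter on low counts gave 2 and 4 with glucose (6122 of all 36760 genes called). Experiment 1 alone has 1 KMT2D-WT library in each condition, so its calls are not counted here. Experiment 2 alone gave 0 lower with glucose (2336 of all 19885 genes called) and 5 lower without (12888 of 17304). The latter fit holds only the close pairs. KO1 alone against KMT2D-WT gave 3 higher (6410 of all 20918 genes called), and KO2 alone 2 higher and 4 lower (7273 of 20771). Summing the close pairs gave 1 and 1 (2785 of 16867). Library size scaling moved the median log2 fold change of all genes to -0.25 in glucose-deprived cells, -0.23 in the interaction and -0.16 in the glucose comparison. It gave 1 lower in the interaction (ERBB2, with 2666 of all 18678 genes called) and 0 and 0 in the glucose comparison (44 of 16066). The cause of these changes was not tested.

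Leaving out 1 library at a time gave 1 to 2 members higher and 1 to 2 lower with glucose, 3 to 4 higher and 1 to 5 lower without, 1 and 0 in every case for the interaction, 2 to 4 higher and 0 to 1 lower for glucose deprivation, and 2 to 3 higher and 0 to 1 lower between the lines. Of all genes tested, these fits called 2142 of 21365 to 5048 of 19354 with glucose and 6031 of 17559 to 12448 of 16739 without. They called 788 of 19677 to 4230 of 18767 in the interaction and 162 of 16870 to 1336 of 16703 for glucose deprivation. Between the lines they called 1094 of 21556 to 3974 of 20041. Calls gained with glucose were ERRFI1 without KO1 of experiment 1 (adjusted p = 0.0466 by edgeR), HBEGF without KO1 of experiment 2 (-1.16, adjusted p = 0.0177) and EREG without KO2 of experiment 2 (1.11, adjusted p = 0.0496). Without KO1 of experiment 1, glucose-deprived TGFA (-0.11, adjusted p = 0.00311 by edgeR) and KMT2D (-0.58, adjusted p = 2.44e-08) were also called. That fit called 12448 of all 16739 genes tested and rests largely on the close pairs of experiment 2, so its adjusted p may measure technical spread. Without the KMT2D-WT library of experiment 1, ADAM15 and DUSP5 with glucose had an adjusted p of 0.0560 and 0.0516. The log2 value took both signs for KMT2D (-0.333 to 0.179), ERBB3 (-0.319 to 0.0769) and EPGN (-0.136 to 1.19) with glucose, for HBEGF (-0.602 to 0.369) and EGFR (-0.0684 to 0.152) in the interaction, for EGFR under deprivation (-0.216 to 0.114) and for EPGN between the lines (-0.826 to 1.634).

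Sign changes (log2) were KMT2D in experiment 2 with glucose (0.0408), ERBB3 (0.20), EREG (-0.18), EPGN (-0.0532) and KMT2D (0.37) in KO2 alone with glucose, HBEGF in the interaction without the block (0.25) and in experiment 1 (0.98), EGFR (-0.20) and BTC (-0.0237) in the interaction under library size scaling and EGFR (-0.0071) and BTC (-0.0377) in experiment 1, and TGFA between lines under library size scaling (0.0276).

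Depth limits EPGN, with 0 to 57 counts, and to a lesser degree BTC. Genotype tests in experiment 1 alone rest on 1 KMT2D-WT library and 3 libraries in all for each glucose condition.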
